A study of Mus musculus with 4 samples.

Results

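The 10 genes described here belong to oxygen sensing and the response to the hypoxia-inducible factor (HIF), and they were measured in mouse regulatory T (Treg) cells that had been differentiated in culture. They were the prolyl hydroxylases Egln1, Egln2 and Egln3, the HIF subunit Hif1a, the ubiquitin ligase subunit Vhl and the HIF target genes Bnip3, Pdk1, Vegfa, Ankrd37 and P4ha1. Every non-control probe whose gene name in the files was one of these 10 symbols was taken, which gave 21 of the 56605 probes on the array. Of these, 20 were usable on every array and 19 passed the signal filter (well above background on each of the 2 arrays of Junbfl/flCd4-Cre, of Control or of both genotypes), as 33606 probes in all did. The set had been proposed with the difference between genotypes in view, Egln3 being among the largest decreases, so the differences of these genes are given as a description, without a test of their own.

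The comparison set 2 arrays of Junbfl/flCd4-Cre cells against 2 Control arrays of Junbfl/fl cells, all of C57BL/6 mice. Both genotypes carry the floxed Junb allele, and Junbfl/flCd4-Cre mice also carry Cre recombinase under Cd4 regulatory elements, which are active from thymocyte development on in T cells. Naive CD4+ T cells were sorted and cultured for 3 days on plate-bound anti-CD3 (1 μg/ml) with TGF-β1 (5 ng/ml), anti-CD28 (0.5 μg/ml) and blocking antibodies to IL-4 and IFN-γ (5 μg/ml each). The labels give no age, and separate mice or cultures are not stated for the arrays of 1 genotype, so a p-value here reflects array-to-array spread that may be technical. The extraction label names the colon as tissue, where the others name cultured Treg cells.

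The 4 arrays lay on 1 slide and were read in 1 scan, and the arrays numbered 1 and 2 lay in different rows of it. Between 59.3% and 66.3% of spots were well above background on each array, and no spot was saturated. The targeted gene, Junb, which encodes an AP-1 transcription factor subunit, was read by 3 probes. One Junb probe, A_51_P159194, had processed signals of 1053 and 10078 on arrays Junbfl/flCd4-Cre 1 and 2, against 9791 and 9072 on Control 1 and 2. Another, A_55_P2011106, was not well above background on either array labelled Junbfl/flCd4-Cre and at least 5.71-fold lower there than on Control arrays (adjusted p = 0.040, limma with Benjamini-Hochberg adjustment), and the third was not well above background on any array. The first Junb probe thus does not separate array Junbfl/flCd4-Cre 2 from Control arrays, and every direction below is between arrays as labelled. Where the Junb probes lie relative to the floxed segment is not given in the labels, and a probe outside it would not check the deletion. At the first Junb probe the 2 Junbfl/flCd4-Cre arrays also differed from each other, by 3.50 (log2, each array scaled to its 75th percentile). The cause of that difference was not tested.

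In cells with enough oxygen, the prolyl hydroxylases encoded by Egln1, Egln2 and Egln3 (PHD2, PHD1 and PHD3) hydroxylate proline residues of HIF alpha subunits. The VHL protein binds the hydroxylated subunit and directs it to degradation. Without oxygen HIF alpha is stable, pairs with ARNT and binds promoters and enhancers at a short core sequence, ACGTG, and Egln3 and Egln1 are themselves HIF targets. In T cells HIF-1 is known for its part in glycolysis and in the balance between TH17 and Treg cells.

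The hypoxia response core ACGTG was looked for on both strands in the 250 bases before each RefSeq transcription start (GRCm38.p6), because these genes are grouped by their response to HIF. It lay before at least 1 start of 8 of the 10 genes (8 of 13 windows), while 18.5% of 27025 annotated genes (16.6% of 32851 windows) hold it. The AP-1 motif TGANTCA, searched on both strands because Junb encodes an AP-1 subunit, was in none of the 13 windows and in 6.75% of all windows. The genes were brought together as known HIF targets and regulators, so the first share has no test. Pdk1 (2 windows) and Vhl hold no ACGTG within these 250 bases, and Egln2 and Vegfa hold it in 1 of 2 windows each. For Vegfa it lies only before the downstream start (window chr17:46025164-46025413, minus strand). The window before the upstream Vegfa start (chr17:46032378-46032627) holds none, so Vegfa is among the 8 genes through the downstream start alone. The windows below run 5′ to 3′ on the strand of the gene, and capitals mark ACGTG or its reverse complement CACGT. In the Bnip3 stretch the c before ACGTG also makes an overlapping CACGT, and that c is not capitalized. The whole Egln3 window (chr12:54203875-54204124, minus strand) is shown because Egln3 differed most, and its ACGTG begins 229 bases before the start.
Egln3: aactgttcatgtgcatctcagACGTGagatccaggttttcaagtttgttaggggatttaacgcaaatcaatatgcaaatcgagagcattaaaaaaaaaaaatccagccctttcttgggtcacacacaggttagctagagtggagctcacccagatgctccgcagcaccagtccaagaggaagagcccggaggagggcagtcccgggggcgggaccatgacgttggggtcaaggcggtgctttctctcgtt
For the other 7 genes, 41 bases around the ACGTG nearest to the start are shown so that the flanks can be compared. They lie at chr8:124949300-124949340 (Egln1, minus, 68 bases before the start), chr7:27166828-27166868 (Egln2, minus, 48 bases), chr12:73907779-73907819 (Hif1a, plus, 70 bases), chr7:138909591-138909631 (Bnip3, minus, 107 bases), chr8:45999851-45999891 (Ankrd37, minus, 6 bases), chr10:59323255-59323295 (P4ha1, plus, 16 bases) and chr17:46025352-46025392 (Vegfa, minus, 211 bases before its downstream start).
Egln1: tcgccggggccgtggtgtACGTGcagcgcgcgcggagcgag
Egln2: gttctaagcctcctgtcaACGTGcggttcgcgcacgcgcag
Hif1a: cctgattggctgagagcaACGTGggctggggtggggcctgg
Bnip3: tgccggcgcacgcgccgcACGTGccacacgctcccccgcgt
Ankrd37: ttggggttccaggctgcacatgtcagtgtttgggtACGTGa
P4ha1: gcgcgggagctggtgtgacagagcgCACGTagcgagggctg
Vegfa: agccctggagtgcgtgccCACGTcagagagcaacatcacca

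Egln3 was far lower on Junbfl/flCd4-Cre arrays than on Control arrays. Signals are given here as scaled signals, that is, the processed signal divided by the 75th percentile of that array. Its only probe, A_52_P387009 (mm9 chr12:55280953-55281012, minus strand), had scaled signals of 0.0978 and 0.0936 on Junbfl/flCd4-Cre 1 and 2, against 1.65 and 2.0 on Control 1 and 2. The genotypes lay far apart, and the probe was well above background on all 4 arrays. The difference was −4.25 ± 0.18 on the log2 scale (Junbfl/flCd4-Cre minus Control, SE from the fit, n = 2 each), which is 19.0-fold lower. It was −4.08 between the arrays numbered 1 and −4.42 between those numbered 2. Without array Junbfl/flCd4-Cre 2 it was −4.21, and Egln3 stood 16th from the lowest of 33606 tested probes. The processed signals of Egln3 on Junbfl/flCd4-Cre arrays, 11.7 and 9.45, were low on the array's scale, and normexp background correction (offset 50) together with quantile normalization brought the difference to −2.09. In these bulk samples, fewer cells of a type and less RNA per cell cannot be told apart. T cell markers were high in both genotypes: 9 of 10 had a probe, all 9 were well above background on every array, and their summed scaled signal was 830 and 739 on Junbfl/flCd4-Cre arrays and 931 and 907 on Control arrays. Of these T cell markers, Cd2 (−1.33) and Thy1 (−0.98) were called lower, beside 1.27% of 22491 genes, and the other 7 did not pass the threshold.

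**Figure D1:**
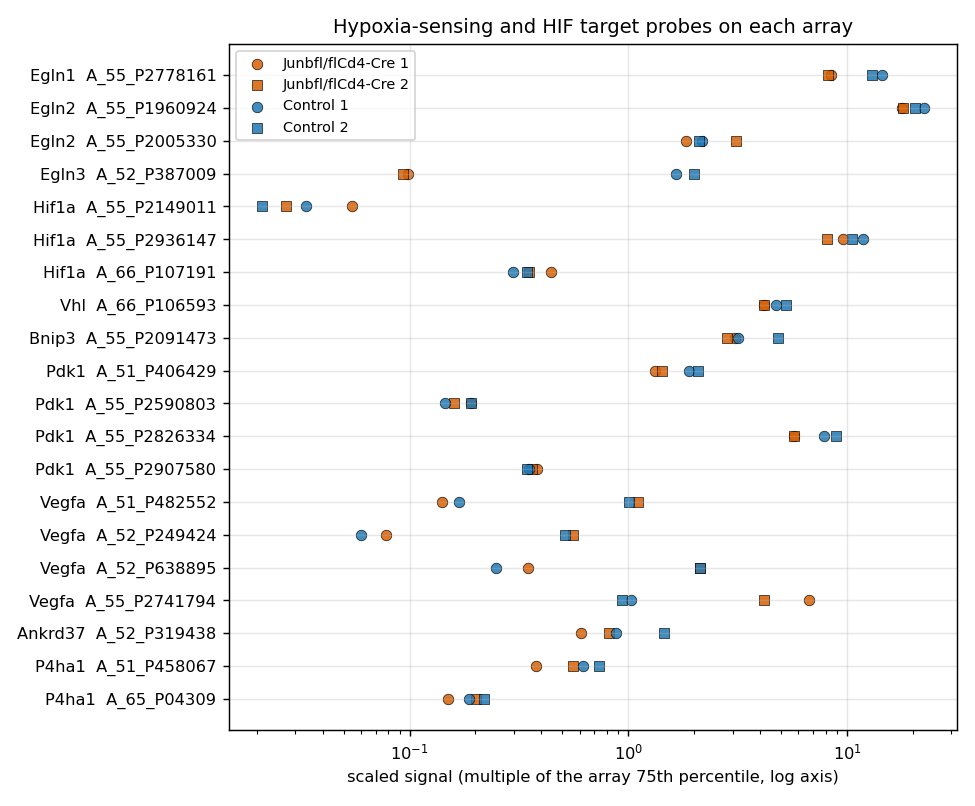
Scaled signal (multiple of the 75th percentile of each array, log axis) of the 20 usable probes of the 10 genes, 1 point per array, with Junbfl/flCd4-Cre arrays in orange and Control arrays in blue, circles for number 1 and squares for number 2. Egln3 and Vegfa probe A_55_P2741794 show the widest gaps between genotypes, while the other 3 Vegfa probes separate by array number.

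Egln1, which encodes PHD2, the main HIF hydroxylase in most tissues, was lower on both Junbfl/flCd4-Cre arrays but not past the threshold of an adjusted p of 0.05. Scaled signals of its probe A_55_P2778161 (mm9 chr8:127432510-127432569, minus strand) were 8.49 and 8.20 on Junbfl/flCd4-Cre 1 and 2, against 14.5 and 13.0 on Control 1 and 2. The genotypes did not overlap, with a difference of −0.72 ± 0.16 (log2, SE). It was −0.44 with quantile normalization, and Egln1 was past the threshold with median scaling (−1.26) and with the array number as a block (−0.72). At those settings 12972 and 8522 of all 33606 tested probes were past it. Egln2, which encodes PHD1, was read by a pair of probes in the same region of chromosome 7 that differed in direction. A_55_P1960924 (mm9 chr7:27943678-27943737) gave 17.9 and 18.0 on Junbfl/flCd4-Cre arrays and 22.6 and 20.4 on Control arrays, a difference of −0.26 ± 0.16 that turned to 0.08 with quantile normalization and was past the threshold with median scaling (−0.79). A_55_P2005330 (mm9 chr7:27944020-27944079) gave 1.84 and 3.12 on Junbfl/flCd4-Cre arrays and 2.17 and 2.11 on Control arrays. The second Egln2 probe overlapped between genotypes (0.16 ± 0.30). Of the 3 hydroxylase genes, Egln3 had a probe past the threshold under the 75th percentile scaling without a block, and the difference between their changes was not tested.

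Hif1a, the oxygen-regulated alpha subunit of HIF-1, had no probe past the threshold under the 75th percentile scaling. Its RefSeq probe, A_55_P2936147 (mm9 chr12:75047819-75047878, plus strand), gave scaled signals of 9.63 and 8.09 on Junbfl/flCd4-Cre arrays and 11.8 and 10.6 on Control arrays. The genotypes stood apart by a small step of −0.34 ± 0.18 (log2, SE), which was −0.06 after quantile normalization and past the threshold, at −0.87, with median scaling. Probe A_66_P107191 (mm9 chr12:75027538-75027597) is listed on the minus strand, opposite to the other Hif1a probes, and gave 0.441 and 0.352 on Junbfl/flCd4-Cre arrays and 0.296 and 0.344 on Control arrays (0.31 ± 0.20, or −0.23 when arrays were scaled on their median). The third Hif1a probe, A_55_P2149011, was well above background on array Junbfl/flCd4-Cre 1 alone and was not tested. Vhl, the substrate receptor of the ligase that recognizes hydroxylated HIF alpha, did not pass it either. Its probe A_66_P106593 (mm9 chr6:113581566-113581625, plus strand) gave 4.18 and 4.19 on Junbfl/flCd4-Cre arrays and 4.76 and 5.24 on Control arrays, a difference of −0.26 ± 0.16, which was −0.03 with quantile normalization and past the threshold, at −0.79, with median scaling. Median scaling moved the median of all differences to −0.54 and put 12972 of 33606 tested probes past the threshold, against which these values are to be read.

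Among the HIF targets other than Vegfa, no probe passed the threshold under the 75th percentile scaling, and the brightest probe of each gene was lower on both Junbfl/flCd4-Cre arrays than on both Control arrays, as it was for 38.5% of all 22491 genes. With median scaling, Bnip3 (−0.94), Ankrd37 (−1.22), 1 P4ha1 probe (−1.09) and 2 Pdk1 probes (−1.07 and −1.08) were past the threshold. So were 12972 of all 33606 tested probes, 18.5% of them higher, and the median of all differences was −0.54 there. Pdk1, the pyruvate dehydrogenase kinase that limits entry of pyruvate into the mitochondrial cycle, had 4 tested probes. A_55_P2826334 (mm9 chr2:71739926-71739985, plus strand) gave scaled signals of 5.73 and 5.75 on Junbfl/flCd4-Cre arrays and 7.89 and 8.95 on Control arrays (−0.55 ± 0.16, log2, SE). A_51_P406429, next to it (mm9 chr2:71739688-71739747), gave 1.32 and 1.43 on Junbfl/flCd4-Cre arrays and 1.90 and 2.09 on Control arrays (−0.54 ± 0.16). These neighbouring probes moved alike. The 2 other tested Pdk1 probes lie further upstream on the plus strand, at mm9 chr2:71713523-71713582 (A_55_P2907580) and chr2:71721635-71721929 (A_55_P2590803). They differed by 0.11 ± 0.15 and 0.06 ± 0.22, and both values turned negative under median scaling, quantile normalization and normexp correction with quantile normalization. Another Pdk1 probe, A_55_P2590813, was left out because its spot on Control 2 was flagged as uneven, with a processed signal of 1035 there against 56.6 on Control 1, and 69.4 and 59.2 on the Junbfl/flCd4-Cre arrays.

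Ankrd37, an ankyrin repeat protein gene known as a direct HIF-1 target, gave 0.608 and 0.814 on Junbfl/flCd4-Cre arrays and 0.879 and 1.45 on Control arrays at probe A_52_P319438 (mm9 chr8:47082404-47082463, minus strand). The genotypes did not overlap, but the step of −0.68 ± 0.33 (log2, SE) was of the order of the spread within Control, and it lay between −1.04 and −0.32 when 1 array was left out. P4ha1, a catalytic subunit of the collagen prolyl 4-hydroxylase, gave 0.377 and 0.556 on Junbfl/flCd4-Cre arrays and 0.619 and 0.735 on Control arrays at probe A_51_P458067 (mm9 chr10:58834272-58834331, plus strand; −0.56 ± 0.26). Its other probe, A_65_P04309, which is mapped across mm9 chr10:58802114-58805464, overlapped between genotypes (−0.22 ± 0.22). Bnip3, a mitochondrial protein of mitophagy and cell death, gave 3.06 and 2.82 on Junbfl/flCd4-Cre arrays and 3.16 and 4.83 on Control arrays at probe A_55_P2091473 (mm9 chr7:146082760-146082819, minus strand). Its difference of −0.41 ± 0.26 came mostly from array Control 2, since it was −0.05 between the arrays numbered 1 and −0.78 between those numbered 2.

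**Figure D2:**
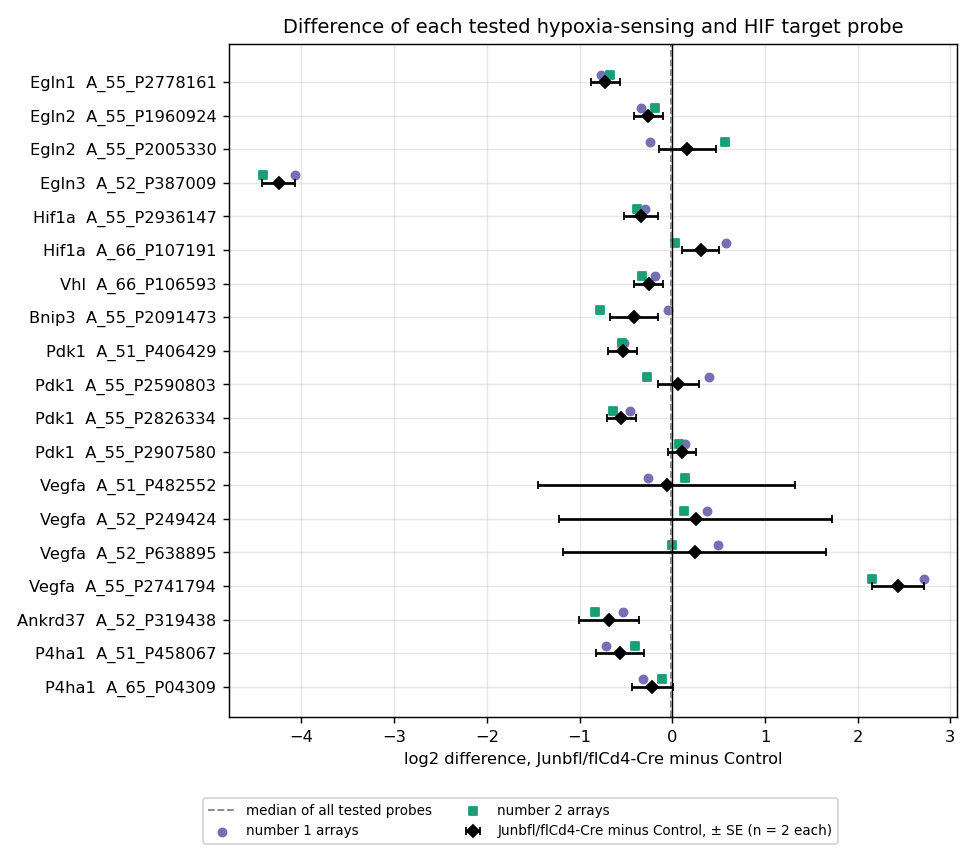
Difference between genotypes on the log2 scale (horizontal axis, Junbfl/flCd4-Cre minus Control) for the 19 tested probes of the 10 genes, with diamonds and bars for the estimate ± SE (n = 2 each), circles and squares for the differences between arrays of the same number, and a dashed line at the median of all tested probes (−0.01). Egln3 lies at −4.25 and Vegfa probe A_55_P2741794 at 2.44, while the other 17 probes lie between −0.72 and 0.31.

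Vegfa, which encodes the angiogenic growth factor VEGF-A, gave different pictures from its probes. Probe A_55_P2741794 (mm9 chr17:46159226-46159282, minus strand) gave scaled signals of 6.72 and 4.18 on Junbfl/flCd4-Cre arrays and 1.02 and 0.938 on Control arrays. The genotypes did not overlap, and the difference was 2.44 ± 0.28 (log2, SE), or 5.41-fold higher on Junbfl/flCd4-Cre arrays. Without array Junbfl/flCd4-Cre 2 it was 2.78. The other 3 Vegfa probes followed the array number instead of the genotype. A_52_P638895 (mm9 chr17:46154387-46154446) gave 0.347 and 2.12 on Junbfl/flCd4-Cre 1 and 2, against 0.247 and 2.13 on Control 1 and 2. A_51_P482552 (mm9 chr17:46155512-46155571) gave 0.140 and 1.11 on Junbfl/flCd4-Cre 1 and 2, against 0.168 and 1.01 on Control 1 and 2. A_52_P249424 (mm9 chr17:46162376-46162435) gave 0.0776 and 0.560 on Junbfl/flCd4-Cre 1 and 2, against 0.0598 and 0.514 on Control 1 and 2. Each of these 3 was higher on both arrays numbered 2, by 2.61 to 2.98 among Junbfl/flCd4-Cre arrays and by 2.58 to 3.11 among Control arrays (log2), and the genotypes overlapped. Their differences between genotypes were 0.24 ± 1.42, −0.06 ± 1.38 and 0.25 ± 1.48. Between arrays of the same number they differed by −0.27 to 0.49, well under 2.44, and with the array number as a block the SEs were 0.20, 0.19 and 0.17.

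**Figure D3:**
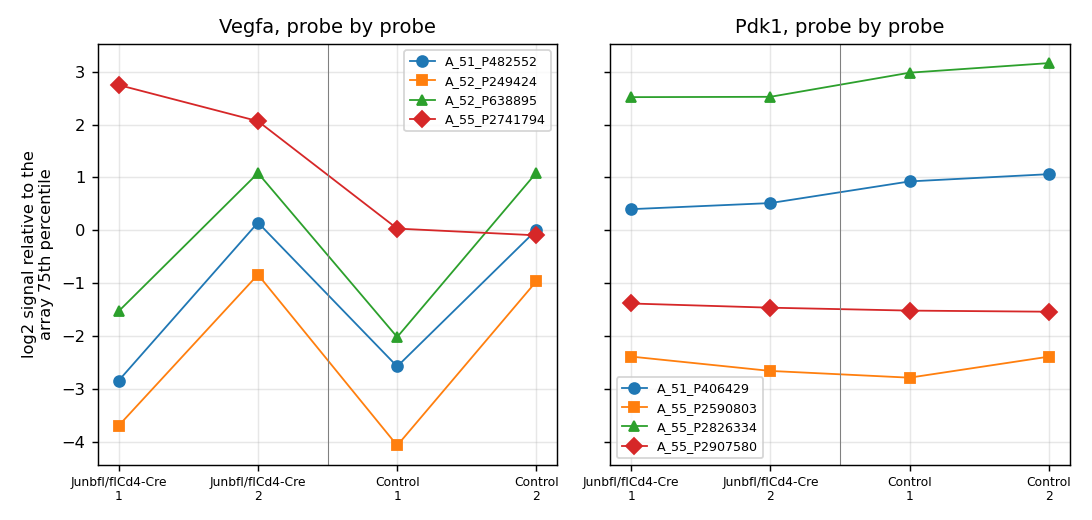
Signal of each tested Vegfa probe (left) and Pdk1 probe (right) on each array, as log2 of the signal relative to the 75th percentile of the array, with Junbfl/flCd4-Cre arrays left of the vertical line and Control arrays right of it. Lines join the values of 1 probe. Vegfa probe A_55_P2741794 is higher on both Junbfl/flCd4-Cre arrays, whereas the other 3 Vegfa probes are high on both arrays numbered 2 and low on both numbered 1.

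The summed signals of myeloid, B cell, and stromal and endothelial markers were higher on both Junbfl/flCd4-Cre arrays than on both Control arrays. NK cell markers, none of the 4 tested, summed to 0.0759 and 0.685 on Junbfl/flCd4-Cre arrays and 0.0371 and 0.123 on Control arrays. The NK cell sums overlapped between genotypes. The cultures were started from sorted naive CD4+ T cells, and the purity of the sort was not examined here. Myeloid markers summed to 61.4 and 32.4 on Junbfl/flCd4-Cre arrays and 26.4 and 17.8 on Control arrays. All 7 of the tested myeloid markers (of 10) had positive differences, none passed the threshold (1 had an unadjusted p under 0.05, limma), and Adgre1 and Fcgr1 were not well above background on any array. B cell markers summed to 7.38 and 4.94 on Junbfl/flCd4-Cre arrays and 3.64 and 1.44 on Control arrays. All 6 tested B cell markers had positive differences, and Ms4a1 (3.18) and Ebf1 (1.67) were called higher. Stromal and endothelial markers summed to 1.35 and 1.04 on Junbfl/flCd4-Cre arrays and 0.636 and 0.595 on Control arrays. All 4 tested ones had positive differences, and Col1a1 and Dcn were called higher, both having passed the signal filter through Junbfl/flCd4-Cre arrays alone. Beside these marker counts, 11360 of 22491 genes by brightest probe had positive differences, 6.8% were called higher and 1.27% lower. In the dimmest of 5 equal bins of probes by mean signal, 5074 of 6722 probes had positive differences and 949 were called higher. Colon epithelial markers summed to 0.785 and 0.878 on Junbfl/flCd4-Cre arrays and 0.732 and 0.756 on Control arrays, and 5 of those 10, Cdh1, Krt19, Krt20, Muc2 and Vil1, were not well above background on any array. Treg markers summed to 201 on each Junbfl/flCd4-Cre array and to 335 and 239 on Control arrays. Of the 6 Treg markers, Ctla4 was called lower (−1.47), Ikzf2 was called higher (4.56), and 3 more had negative and 1 more a positive difference, Foxp3 giving 2.49 and 5.78 on Junbfl/flCd4-Cre arrays and 8.51 and 8.99 on Control arrays. The part of these cells in the values of the 10 genes was not tested.

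Over the 19 tested probes, 1 was called lower (Egln3) and 1 higher (Vegfa A_55_P2741794) at an adjusted p under 0.05, where 6.78% of all 33606 tested probes were called, 1.25% lower and 5.53% higher. Because the genes were chosen on this comparison, nothing is read from the count. At an unadjusted p under 0.05, 4 of the 19 were lower and 1 higher, beside 18.4% and 19.8% of all tested probes. Of the 19 probes, 12 had negative and 7 had positive differences, with a median of −0.26, beside −0.01 over all tested probes. In 10 probes both Junbfl/flCd4-Cre arrays lay below both Control arrays and in 3 above them, and over all tested probes these shares were 37.8% and 34.4%. The difference was negative between the arrays numbered 1 and again between those numbered 2 in 11 of the 19 probes, beside 42.9% of all tested probes. With each gene taken at its brightest tested probe, 9 of the 10 genes were lower and Vegfa was higher. Of all 22491 genes 49.5% were lower, and of the brightest of 5 equal bins of probes 78.3%. Vegfa was higher by 1 of its 4 probes, the other 3 lying between −0.06 and 0.25. The median over the 10 genes was −0.48, beside 0.01 over all genes.

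The size of a difference went with the brightness of a probe on these arrays. When all tested probes were split into 5 equal bins by mean signal, the median difference was −0.35 in the brightest bin and 0.68 in the dimmest. Set against the median of its own bin, Egln3 stayed at −4.25, Vegfa probe A_55_P2741794 was at 2.67, Ankrd37 at −0.69, P4ha1 probe A_51_P458067 at −0.57 and Egln1 at −0.37. Against their bins, Hif1a probe A_55_P2936147 was at 0.01, Vhl at −0.02, Bnip3 at −0.18 and Pdk1 probe A_55_P2826334 at −0.20. Under the 4 scalings tried, 12 of the 19 probes kept the sign of their difference, 11 of them negative. Median scaling lowers every difference by the same amount, so a negative probe could not turn positive there while a small positive difference had to turn. Nothing is read from that split of signs.

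The wider pathway was described through 65 other genes in 5 lists, of which 54 had a tested probe. Of these, 2 were called lower and 1 higher, beside 1.27% and 6.8% of 22491 genes (8.07% in either direction), and the median difference was −0.11. All 3 called genes belong to the HIF targets outside glycolysis, of which 30 of 36 were tested, 19 with negative differences and a median of −0.16. Plod2, a lysyl hydroxylase that acts on collagen, fell most. Its scaled signals were 0.0299 and 0.0475 on Junbfl/flCd4-Cre arrays, neither well above background, and 0.448 and 0.515 on Control arrays, which is at least 10.5-fold lower (fitted difference −3.67 ± 0.28, adjusted p = 0.0265, limma). This probe passed the signal filter through Control arrays alone, and it differed by −1.01 with normexp and quantile normalization and by −1.76 in the authors' deposited table. The other Plod2 probe differed by −1.50. Tfrc, the transferrin receptor that takes up iron, fell to 2.22 and 3.16 on Junbfl/flCd4-Cre arrays, against 10.1 and 10.1 on Control arrays (−1.93 ± 0.23, adjusted p = 0.0343, limma), and its probes ranged from −1.93 to −1.55. Cxcr4, the receptor of the chemokine CXCL12, rose to 2.92 and 2.03 on Junbfl/flCd4-Cre arrays, against 0.645 and 0.716 on Control arrays (1.84 ± 0.24, adjusted p = 0.0372, limma). Tfrc and Cxcr4 lost the call with quantile normalization (adjusted p = 0.058 and 0.054, limma), and Plod2 kept it. With only probes well above background on all 4 arrays, Tfrc and Cxcr4 kept the call, and this Plod2 probe was not tested. The call of Plod2 is therefore not read as the firmest of these. With any 1 array left out, no probe on the array was called, and the differences stayed between −4.01 and −3.34 for Plod2, −2.19 and −1.68 for Tfrc, and 1.58 and 2.10 for Cxcr4.

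No gene of the other 4 lists was called by limma, and an unadjusted p under 0.05 was reached by 1 HIF subunit gene, 2 VHL partner genes, 3 paralogs and 2 VEGF receptor or neuropilin genes (19% of all genes reached it as lower and 22.7% as higher). The HIF subunits and the asparagine hydroxylase had 4 of 5 genes tested, with Hif3a at −0.95 ± 0.36 and Epas1, which encodes HIF-2 alpha, at 0.85 ± 0.27 (adjusted p = 0.137 and 0.106, limma). All 7 genes of proteins that work with VHL had negative differences (median −0.49), as did 49.5% of all genes and 78.3% of the brightest bin of probes, the largest at Cul2, the cullin of the VHL ligase (−0.80 ± 0.21, adjusted p = 0.084), and Eloc, its elongin C (−0.71 ± 0.22, adjusted p = 0.100). Among paralogs, 9 of 12 were tested. P4ha3, another collagen prolyl hydroxylase subunit, passed the signal filter through Junbfl/flCd4-Cre arrays alone and was at least 1.73-fold higher on Junbfl/flCd4-Cre arrays (adjusted p = 0.080), and P4hb, the common beta subunit, differed by −0.80 ± 0.18 (adjusted p = 0.072). Of the VEGF receptors and neuropilins, 4 of 5 were tested. Flt1, a VEGF-A receptor, gave 0.606 and 0.265 on Junbfl/flCd4-Cre arrays and 0.113 and 0.0623 on Control arrays (2.26 ± 0.53, adjusted p = 0.075). Nrp2, a co-receptor for VEGF family ligands, gave 120 and 723 on Junbfl/flCd4-Cre 1 and 2, against 55.8 and 233 on Control 1 and 2 (1.37 ± 1.16, adjusted p = 0.414). Nrp2 was higher on both arrays numbered 2, and it was also higher in Junbfl/flCd4-Cre between arrays of the same number, by 1.11 and 1.64.

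**Figure D4:**
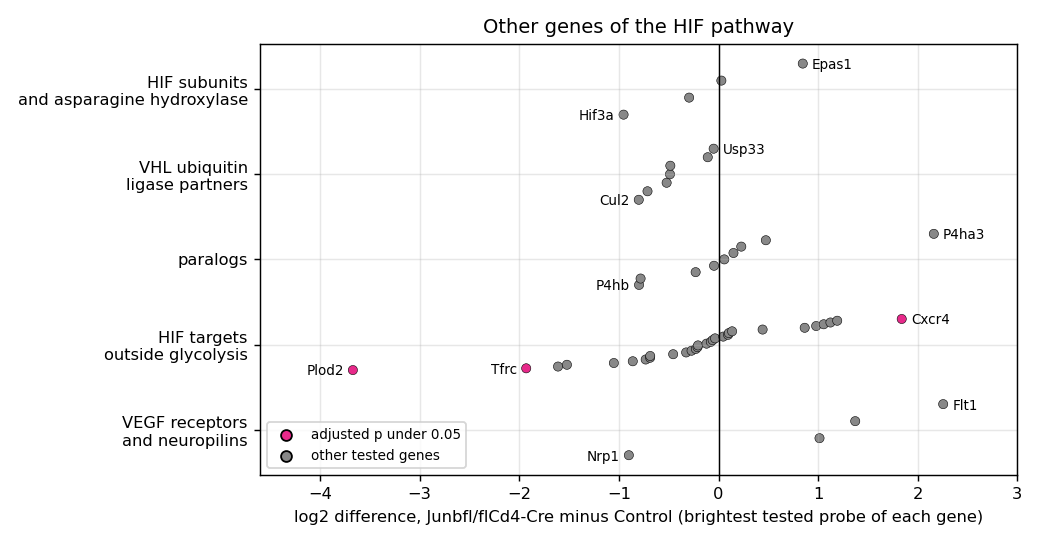
Difference between genotypes on the log2 scale (horizontal axis, Junbfl/flCd4-Cre minus Control, brightest tested probe of each gene) for the 54 tested genes of 5 wider HIF pathway lists, 1 point per gene, ordered within each list. Pink points mark the called genes, Plod2 at −3.67, Tfrc at −1.93 and Cxcr4 at 1.84, and the outermost genes of each list are named.

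The profiles most like that of Egln3 over the 4 arrays were those of Plod2, Mical2 and Fam129b, with Euclidean distances of 0.775, 0.805 and 0.808 between log2 signals after the mean of each probe was subtracted, among 13251 genes searched. Distance was measured on the same 4 arrays that set the genotypes apart. Mical2, a flavin-dependent oxidoreductase that acts on actin, gave 0.0402 and 0.0496 on Junbfl/flCd4-Cre arrays and 0.404 and 0.723 on Control arrays. Plod2 was not well above background on either Junbfl/flCd4-Cre array, nor Mical2 on Junbfl/flCd4-Cre 2, so the order of these distances is not firm. Fam129b gave 1.79 and 1.67 on Junbfl/flCd4-Cre arrays and 18.4 and 19.4 on Control arrays. All 3 were low on both Junbfl/flCd4-Cre arrays without overlap, which follows from their choice by closeness to Egln3. Plod2 is on the list of HIF targets, while Mical2 and Fam129b are on none of the lists used here.

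**Figure D5:**
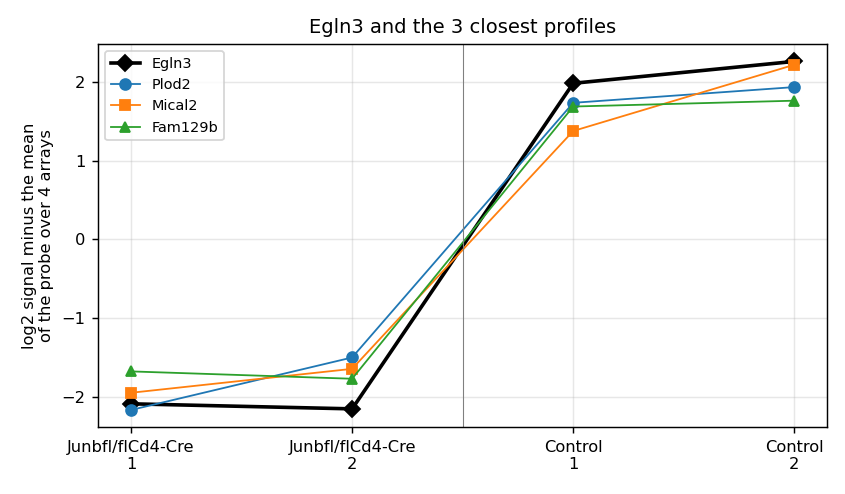
Log2 signal of Egln3 (black) and of the 3 genes closest to it on each array, after subtraction of the mean of each probe over the 4 arrays (vertical axis), with Junbfl/flCd4-Cre arrays left of the vertical line and Control arrays right of it. All 4 genes lie below their mean on Junbfl/flCd4-Cre arrays and above it on Control arrays.

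The authors' deposited table of processed values, whose scale and filter are not described in the sources used here, held 13 rows for the 10 genes. In the authors' deposited table Egln3 differed by −3.05 on the log2 scale and was the only 1 of the 13 rows with an adjusted p under 0.05. In the authors' deposited table the 2 Hif1a rows differed by −0.02 and 0.09, and the Pdk1 row at the probe with the uneven spot by −1.46. The authors' deposited table has 1 row per accession, and 3 Vegfa probes share the accession of the row named A_55_P2741794; how the table combines probes is not described. That row of the authors' deposited table differed by 0.79, with log2 values of 6.93 and 8.25 on Junbfl/flCd4-Cre 1 and 2 and 6.14 and 7.45 on Control 1 and 2. It overlapped between genotypes and was higher on both arrays numbered 2. Between arrays of the same number it was also higher on the Junbfl/flCd4-Cre array, for number 1 and for number 2. The other Vegfa row of the authors' deposited table, A_52_P249424, differed by −0.06.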

How the data were processed

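The samples were 4 one-colour Agilent arrays, 2 Junbfl/flCd4-Cre and 2 Control, grouped by the genotype in the labels. The authors' scanner output was made with Agilent Feature Extraction 11.5.1.1, per the file headers, and its deposited intensity column (processed signal) is background-subtracted. Here each array's processed signal was divided by its 75th percentile over non-control probes, log2 was taken, and spots flagged as uneven or outliers were left out. Each of the 20 usable probes of the 10 genes has 1 spot per array, so the number of arrays limits the precision. Probes that passed the signal filter given in the report were tested with limma 3.58.1 (R 4.3.3), no covariate, Benjamini-Hochberg over 33606 probes, called at an adjusted p under 0.05. An exact permutation test of 2 against 2 cannot go below p = 0.333 (two-sided). The fit was tested on simulated data. Where all arrays of a genotype were not well above background, a bound is given: the bright mean over, per array, the higher of the lowest well-above-background signal and the dim signal. Probe positions are mm9, per the file headers. Of the 20 probes, 18 matched RefSeq under the same symbol by accession. Exons and UTRs were not assigned. Promoter windows are RefSeq, GRCm38.p6.

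The deposited table of log2 values gave the authors' own log2 differences and adjusted p-values, whose normalization was not given in the sources used here. The 10 genes and all lists were chosen with earlier results of these data known. Named were every probe of the 10 genes, Junb, the called genes of each list or otherwise the 2 with the largest absolute difference, and the 3 profiles closest to Egln3. Alternatives were median scaling, quantile normalization, normexp with quantile, no filter or a stricter one, the mean of a gene's probes, the array number as a block, and each array left out. The array numbers are not stated to pair samples.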

Additional observations from a re-analysis of the deposited data

How the results depend on the processing

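Of 33606 tested probes, 2277 were called between genotypes, 81.6% of them higher on Junbfl/flCd4-Cre arrays. The count was 12972 with median scaling (18.5% higher, the median of all differences moving to −0.54), 650 with quantile normalization, 338 with normexp and quantile, 1377 with only probes well above background on all 4 arrays, and 0 without the filter (limma; 12028 at an unadjusted p under 0.05). With the replicate number as a block, a pairing that the labels do not state, it was 8522. Over 33606 probes, the difference between arrays 1 and 2 in Control correlated at 0.45 with that in Junbfl/flCd4-Cre. Only 2 same-numbered pairs of arrays were available. Leaving out any 1 array gave 0 calls (limma; 7315 to 11361 at an unadjusted p under 0.05), a fit of 1 array against 2 in which no probe passed. Of the 19 probes of the 10 genes, 2 were called, against 11 with median scaling, 3 with the replicate block, 1 with normexp, 1 in the authors' deposited table, 0 without the filter (3 unadjusted) and 0 without any 1 array (3 to 6 unadjusted). Of the wider pathway genes 3 were called, against 23, 18 and 1 under the first 3 of those settings, 1 with quantile normalization, 2 with the stricter filter, 0 without the filter (14 unadjusted) and 0 without any 1 array (13 to 18 unadjusted). Egln3 stayed between −4.78 and −2.09 under the 4 scalings and between −4.39 and −4.11 without 1 array, and Vegfa probe A_55_P2741794 between 1.90 and 2.56 and between 2.09 and 2.78. Among the 19 probes, the sign of the difference turned in 6 with median scaling, 4 each with quantile and normexp, 1 to 3 without 1 array and 0 with the replicate block. A slide or scan block was not run, since all arrays share both. The cause of these shifts was not tested.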
